A study of Mus musculus with 6 samples.

Results

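Microglia from the nucleus of the solitary tract (NST) of P15 mice were examined for 10 genes of the insulin-like growth factor (IGF) system, taken by symbol from the 26789 genes of the deposited table. They are the ligand gene Igf2, the receptor genes Igf1r and Igf2r, the binding protein genes Igfbp2, Igfbp3, Igfbp4, Igfbp5 and Igfbp7, and the adaptor genes Irs1 and Irs2. All 10 genes had a row and all 10 passed the filter on low values, which asked for 10 normalized counts or more on average across the 6 libraries. Control litters came from dams kept on standard chow, and E3–E12 diet litters from dams given low-sodium chow and distilled water from E3 to E12 and standard chow afterwards. Each library held the rostral NST of 6 littermates pooled, with 3 litters in each group. No label names a genotype. By the study's methods the cells were taken with magnetic beads against CD11b, whereas the design text names laser microdissection, so the way of isolation is uncertain.

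IGF1 and IGF2 are peptides that act through the tyrosine kinase receptor encoded by Igf1r, which phosphorylates the docking proteins IRS1 and IRS2 and so passes the signal to the PI3-kinase and AKT kinases. The receptor encoded by Igf2r has no kinase. It takes up IGF2 for breakdown and also sorts lysosomal enzymes that carry mannose 6-phosphate. Secreted binding proteins hold the ligands outside the cell, and in brain many of these proteins, and IGF2 itself, are known as products of the choroid plexus, meninges, vessel walls and astrocytes more than of microglia.

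The binding protein genes Igfbp2 and Igfbp5 are neighbours on chromosome 1 that are transcribed towards each other, with 5457 bases between their ends in the GENCODE annotation. The bases before their start sites are shown because both genes were highest in the same library, and those of Igfbp4 because it was the steadiest gene of the set. That library, E3–E12 diet replicate 1, was the highest for 5 of the 10 genes, Igfbp4 among them. All 3 are RefSeq sequences of build GRCm38.p6, 250 bases each, written 5′ to 3′ on the strand of the gene, with GC boxes (GGGCGG on either strand) and the TATA box (TATAAA on either strand) in capitals.
Igfbp2, chr1:72824230-72824479, plus strand: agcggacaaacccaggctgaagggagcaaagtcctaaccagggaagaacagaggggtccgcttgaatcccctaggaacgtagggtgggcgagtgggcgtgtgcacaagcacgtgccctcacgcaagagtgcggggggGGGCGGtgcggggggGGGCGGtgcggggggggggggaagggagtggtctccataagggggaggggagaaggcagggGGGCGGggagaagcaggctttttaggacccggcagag
Igfbp5, chr1:72874866-72875115, minus strand: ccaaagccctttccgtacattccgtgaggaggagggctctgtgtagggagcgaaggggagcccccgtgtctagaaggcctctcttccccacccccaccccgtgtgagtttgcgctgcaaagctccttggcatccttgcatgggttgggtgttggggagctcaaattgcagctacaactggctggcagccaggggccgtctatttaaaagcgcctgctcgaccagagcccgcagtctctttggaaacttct
Igfbp4, chr11:99040994-99041243, plus strand: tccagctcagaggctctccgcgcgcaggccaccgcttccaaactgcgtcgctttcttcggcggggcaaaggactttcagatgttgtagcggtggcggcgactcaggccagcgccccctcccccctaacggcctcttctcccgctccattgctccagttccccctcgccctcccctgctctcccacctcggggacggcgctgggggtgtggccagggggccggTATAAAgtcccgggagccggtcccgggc
The Igfbp2 window, the first of 2 listed for that gene, held 3 GC boxes, and those of Igfbp5 and Igfbp4 held 0. Of 14 such windows over the 10 genes, 8 held a GC box, against 32.7% of all 32851 windows, and 1, that of Igfbp4, held the TATA box, against 12.4% of all windows. The FOXO core TGTTTAC was in 0 of the 14 windows (3.17% of all windows, either strand). The insulin response core TTGTTTT was in 2, those of Irs1 and Irs2 (8.11% of all windows, either strand). These matches describe letters in a window and no binding was measured.

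The libraries themselves differed. The normalized counts of a library summed to between 9407141 and 17204618, and between 3459 and 10640 genes were listed at 0, the most in control replicate 2. The number of reads behind a value is not known. All 12 microglial markers fixed for the analysis, among them Cx3cr1, P2ry12, Tmem119 and Csf1r, were above 0 in every library, and their sum ran from 108667 to 544119 normalized counts in controls and from 107871 to 355389 in E3–E12 diet mice. The microglial sum was highest in control replicate 2, where Igf2r and Irs2 were highest. It was lowest in E3–E12 diet replicate 1 (107871) and nearly as low in control replicate 1 (108667). Of the 12 markers, 7 were lowest in control replicate 1 and 5 in E3–E12 diet replicate 1. The part of the microglial sum in the Igf2r and Irs2 values was not tested. Markers of endothelial, mural, fibroblast, choroid plexus, astrocyte, oligodendrocyte and neuronal cells were also present, and 0 markers of any list had an unadjusted p under 0.05 in limma. Higher in E3–E12 diet mice were 0 of 12 microglial, 6 of 10 endothelial, 8 of 10 mural and 7 of 9 astrocyte markers. So were 4 of 8 fibroblast and meningeal, 2 of 9 choroid plexus, 5 of 10 oligodendrocyte and 6 of 10 neuronal markers. Over all genes tested, 54.4% had a log2 fold change above 0. The summed endothelial and mural markers were lowest in control replicate 2, at 5536 and 3906 normalized counts, against 9788 to 16276 and 8659 to 19493 in the others. The summed choroid plexus markers were highest in E3–E12 diet replicate 1, at 41719.5 normalized counts, and ran from 145 to 20093 in the others. In such bulk libraries, fewer cells of a type and less RNA per cell cannot be told apart.

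None of the 10 genes passed the adjusted threshold of 0.1 between diets (limma on log2(normalized count + 1), two-sided, Benjamini-Hochberg over 18007 genes, adjusted p = 0.999 for each), where 0% of all genes tested did so. The count of the 10 with an unadjusted p under 0.05 was 0, where 327 genes (1.82%) had one, of which those higher in E3–E12 diet mice made up 0.950% and those lower 0.866% of all tested. The groups overlapped in each of the 10 genes, whereas they did not overlap in 5.90% of all genes tested, 2.99% higher and 2.91% lower. 7 of the 10 log2 fold changes (E3–E12 diet minus control) were above 0, with a median of 0.49, against 54.4% of all genes and a median of 0.087. Without control replicate 2, 4 of the 10 were above 0 and the median was -0.10. The study itself, using DESeq2 at an adjusted threshold of 0.1, listed Igfbp2 and Igfbp5 as lower in E3–E12 diet mice. That model could not be rerun on the normalized values, so its calls and those of limma come from different methods.

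**Figure D1:**
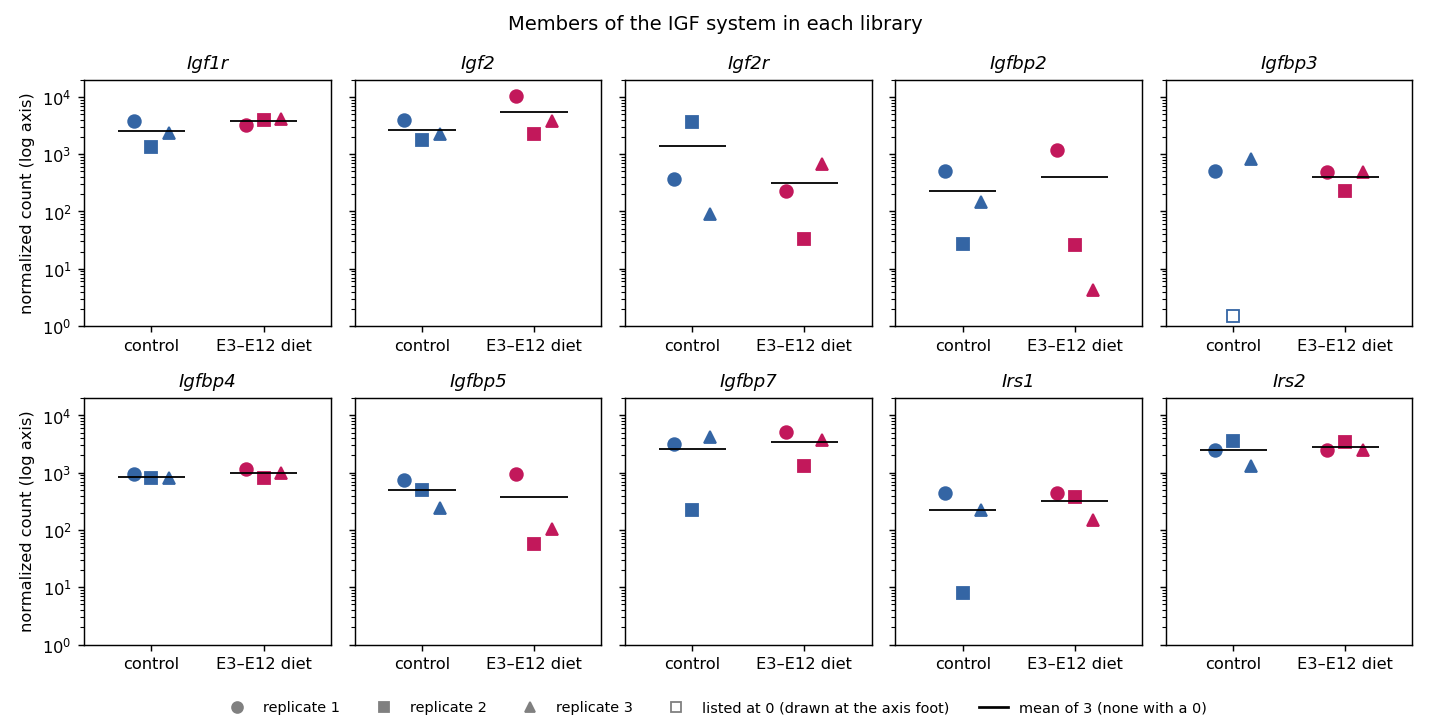
Normalized counts of the 10 genes in each library on a log axis, with one panel for each gene, controls in blue and E3–E12 diet mice in red, replicate numbers as marker shapes and black lines for the mean of 3 libraries, left out where a library is listed at 0. The groups overlap in every panel, Igfbp4 lies between 801 and 1140.5 in all 6 libraries, and Igfbp3 is listed at 0 in control replicate 2.

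Igf2, the ligand, is expressed from the paternal copy in most tissues. It was at 3919, 1744 and 2221 normalized counts among the controls, in replicate order, and at 10317, 2253 and 3752 among the E3–E12 diet litters. A single E3–E12 diet library was above all controls, and the other two lay within their range. The means were 2628 ± 1143 in controls and 5441 ± 4289 in E3–E12 diet mice (SD, n = 3 litters each), with a log2 fold change of 0.84 and a 95% confidence interval of -0.99 to 2.67 (exact permutation p = 0.4, two-sided). The log2 fold change was 0.23 without E3–E12 diet replicate 1 and 1.33 without E3–E12 diet replicate 2. E3–E12 diet replicate 1 also had the highest summed fibroblast and meningeal markers, at 5591 normalized counts against 950 to 2613 in the others. Its summed choroid plexus, mural, astrocyte and neuronal markers were highest as well. Control replicate 1, next highest in Igf2, was also next highest in the fibroblast and meningeal sum (2613). E3–E12 diet replicate 3, with Igf2 at 3752, had a fibroblast and meningeal sum of 1004 and a choroid plexus sum of 743. Control replicate 3, with Igf2 at 2221, had a choroid plexus sum of 20093. The part of such cells in the Igf2 values was not tested. Igf2 lies on chromosome 7, positions 142650766 to 142666816 of GRCm38, and 62.1% of the 50-base windows of its transcripts also occur in other annotated genes, mostly the overlapping gene Gm49394 on the same strand, so its value is uncertain where reads could be split.

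Igf1r, the signalling receptor, had 3806, 1340.2 and 2375 normalized counts among the controls, in replicate order, and 3284, 3928 and 4043 among the E3–E12 diet litters. The E3–E12 diet libraries lay close together, with the highest only 1.23 times the lowest, and control replicate 1 lay inside their range. Its means were 2507 ± 1238 in controls and 3752 ± 409 in E3–E12 diet mice (SD, n = 3 litters each, exact permutation p = 0.2). The log2 fold change was 0.70 with a 95% confidence interval of -0.78 to 2.18, 0.31 without control replicate 2, the lowest library, and 1.07 without control replicate 1.

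Igf2r, the receptor that clears IGF2 and is expressed from the maternal copy in most mouse tissues, had another order of libraries than Igf1r. It was at 365, 3652 and 90.1 normalized counts among the controls, in replicate order, and at 228, 33.0 and 669.9 among the E3–E12 diet litters. The highest value was in control replicate 2, the library in which Igf1r was lowest. The spread within each diet was wide, at 40.6 times between the highest and lowest control and 20.3 times among the E3–E12 diet libraries. The log2 fold change was -1.51 with a 95% confidence interval of -5.42 to 2.39 (n = 3 litters each, exact permutation p = 0.5), and it was -0.073 when control replicate 2 was left out and -0.34 when E3–E12 diet replicate 2 was. It was -2.49 without E3–E12 diet replicate 3 and -2.74 without control replicate 3. Airn, the antisense RNA of the Igf2r locus, shares no annotated exon base with Igf2r. Its normalized counts were 184, 75.3 and 91.1 among the controls, in replicate order, and 166, 146 and 139 among the E3–E12 diet litters, lowest where Igf2r was highest, and whether the counting used strand is not given in the sources used here.

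Igfbp2, a binding protein known from the choroid plexus, meninges and astrocytes, had the widest spread of the genes with no library at 0. Its normalized counts were 517, 26.9 and 148 among the controls, in replicate order, and 1185, 26.3 and 4.33 among the E3–E12 diet litters. The E3–E12 diet group held both the highest and the lowest library, 274 times apart. Its mean was 231 ± 255 normalized counts in controls and 405 ± 675 in E3–E12 diet mice, yet the log2 level was lower in the latter, with a log2 fold change of -1.21 and a 95% confidence interval of -6.21 to 3.79 (n = 3 litters each, exact permutation p = 0.7). Without E3–E12 diet replicate 1 the log2 fold change was -3.42, and it became 0.48 when E3–E12 diet replicate 3 was left out and -2.32 when control replicate 2 was. It was -0.70 without E3–E12 diet replicate 2 and -0.21 without control replicate 1. The summed choroid plexus markers were 8016, 809 and 20093 normalized counts among the controls, in replicate order, and 41719.5, 145 and 743 among the E3–E12 diet litters. The 3 libraries with the highest sums were the 3 with the most Igfbp2. Ttr alone made up between 2.33% and 92.3% of the sum in a library. Without Ttr the sums were 1417, 711 and 2144 normalized counts among the controls and 3202, 141 and 345 among the E3–E12 diet litters, with the same 3 libraries highest. Of the 9 markers, 7 were highest in E3–E12 diet replicate 1. In control replicate 2, Folr1, Kcne2 and Otx2 were at 0, but Kl (448) and Prlr (235) were above their values in control replicate 1 (109 and 66.1). In E3–E12 diet replicate 2, Clic6, Kcne2 and Otx2 were at 0. The 3 libraries with the most Igfbp2 also had the highest summed astrocyte, mural, and fibroblast and meningeal markers. Without Slc1a2 the astrocyte sums were highest in E3–E12 diet replicate 1 (4366), control replicate 2 (2148) and E3–E12 diet replicate 3 (1862). Without Rgs5 the mural sum of E3–E12 diet replicate 3 (5824) was above that of control replicate 3 (5106). Without Col1a1 the fibroblast and meningeal sums were highest in the same 3 libraries as Igfbp2. The part of choroid plexus or these other cells in the Igfbp2 values was not tested.

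Igfbp5, which binds to extracellular matrix as well as to IGFs, was highest in the same library as its neighbour Igfbp2. It was at 758, 499 and 245 normalized counts among the controls, in replicate order, and at 955, 56.2 and 102 among the E3–E12 diet litters. A pair of E3–E12 diet libraries lay below all controls and the remaining one above all of them. The means were 501 ± 256 in controls and 371 ± 506 in E3–E12 diet mice (SD, n = 3 litters each), and the log2 fold change was -1.35 with a 95% confidence interval of -4.10 to 1.40 (exact permutation p = 0.4). Without E3–E12 diet replicate 1 the log2 fold change was -2.56, with a limma adjusted p of 1. It was -0.53 without E3–E12 diet replicate 2. The summed fibroblast and meningeal markers were 2613, 1476 and 1724 normalized counts among the controls, in replicate order, and 5591, 950 and 1004 among the E3–E12 diet litters. The 2 libraries lowest in Igfbp5 also had the lowest sums, and the highest had the highest sum. Single markers varied, with 4 of 8 highest in E3–E12 diet replicate 1 and 4 of 8 lowest in E3–E12 diet replicate 2. The summed choroid plexus markers were also lowest in E3–E12 diet replicates 2 and 3 and highest in E3–E12 diet replicate 1. The part of these cells in the Igfbp5 values was not tested.

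Igfbp7 and Igfbp3 were low in the same library. Igfbp7, which binds IGFs weakly and is known from vessel walls, had 3234, 223 and 4262 normalized counts among the controls, in replicate order, and 5096, 1336 and 3736 among the E3–E12 diet litters. Igfbp3, the main IGF carrier of blood, had 507, 0 and 835 normalized counts among the controls, in replicate order, and 485, 226 and 493 among the E3–E12 diet litters. In both genes control replicate 2 was far below every other library, and E3–E12 diet replicate 2 was the next lowest. These were also the 2 libraries with the lowest summed endothelial markers, at 5536 and 9788 normalized counts, and mural markers, at 3906 and 8659. The summed astrocyte markers were lowest in the same 2 libraries, at 2359 and 4513. Slc1a2 alone made up between 8.95% and 82.0% of that sum in a library. Without Slc1a2 the sums were 1676, 2148 and 1564 normalized counts among the controls, in replicate order. They were 4366, 1730 and 1862 among the E3–E12 diet litters, so control replicates 1 and 3 were then lowest. Without Flt1 and Rgs5, the endothelial and mural sums were still lowest in control replicate 2 and E3–E12 diet replicate 2. Of 9 astrocyte markers, 5 were at their lowest and 1 at its highest in control replicate 2. The members of these lists were mixed. In control replicate 2, 6 of 10 endothelial markers were at their lowest, with Ly6c1 at 0, but Cldn5 (1207 normalized counts) and Pecam1 (3154) were at their highest and Kdr and Esam were not low. Of 10 mural markers 7 were at their lowest in that library, with Kcnj8 and Des at 0, while Abcc9 (1005), Notch3 (1902) and Myh11 (385) were not. Whether vessel cells or astrocytes set the Igfbp7 and Igfbp3 values was not tested.

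The means of Igfbp7 were 2573 ± 2099 in controls and 3389 ± 1904 in E3–E12 diet mice (SD, n = 3 litters each), and its log2 fold change was 1.01 with a 95% confidence interval of -1.99 to 4.02 (exact permutation p = 0.6). Without control replicate 2 the Igfbp7 log2 fold change was -0.34. It was 0.62 without E3–E12 diet replicate 1, 1.58 without E3–E12 diet replicate 2, 1.59 without control replicate 1 and 1.79 without control replicate 3. For Igfbp3 the log2 fold change of 2.34 (95% confidence interval -3.63 to 8.30, exact permutation p = 1, n = 3 litters each) rests on the library listed at 0 and on the pseudocount, and it was -0.78 without control replicate 2. It was 3.71 without control replicate 1 and 4.07 without control replicate 3. Of all genes tested, 19.9% were listed at 0 in at least 1 library.

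Igfbp4, a binding protein that restrains IGF action until it is cut by the protease PAPP-A, was the steadiest of the 10. It was at 939, 801 and 819 normalized counts among the controls, in replicate order, and at 1140.5, 818 and 978 among the E3–E12 diet litters. The highest library was only 1.42 times the lowest. The means were 853 ± 74.9 in controls and 979 ± 161 in E3–E12 diet mice (SD, n = 3 litters each), and its log2 fold change was 0.19 with a 95% confidence interval of -1.07 to 1.45 (exact permutation p = 0.3). Leaving out 1 library at a time moved it between 0.073 and 0.31, the lowest without E3–E12 diet replicate 1 and the highest without E3–E12 diet replicate 2.

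The adaptor genes Irs1 and Irs2 carry the signal on from the activated receptor. Irs2 had 2543, 3640.0 and 1306 normalized counts among the controls, in replicate order, and 2531, 3388 and 2488 among the E3–E12 diet litters. The E3–E12 diet libraries lay inside the control range, with means of 2496 ± 1168 in controls and 2802 ± 508 in E3–E12 diet mice (SD, n = 3 litters each). Its log2 fold change was 0.27 with a 95% confidence interval of -1.22 to 1.76 (exact permutation p = 0.9). It was -0.13 without control replicate 3, the lowest library, 0.61 when control replicate 2 was left out and 0.13 when E3–E12 diet replicate 2 was.

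Irs1 was at 451, 7.99 and 222 normalized counts among the controls, in replicate order, and at 436, 375 and 148 among the E3–E12 diet litters. Control replicate 2 was low for Irs1 and was the highest library for Irs2. The means of Irs1 were 227 ± 221 in controls and 320 ± 152 in E3–E12 diet mice (SD, n = 3 litters each), with a log2 fold change of 1.59 and a 95% confidence interval of -1.98 to 5.15 (exact permutation p = 0.7), or -0.13 without control replicate 2 and 2.70 without control replicate 1. 30.5% of the 50-base windows of Irs1 also occur in Gm9747, which is annotated on the opposite strand, so its value is uncertain. For Irs2 the overlapping share was 1.80%, and it was at most 2.99% for the genes of the binding proteins.

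**Figure D2:**
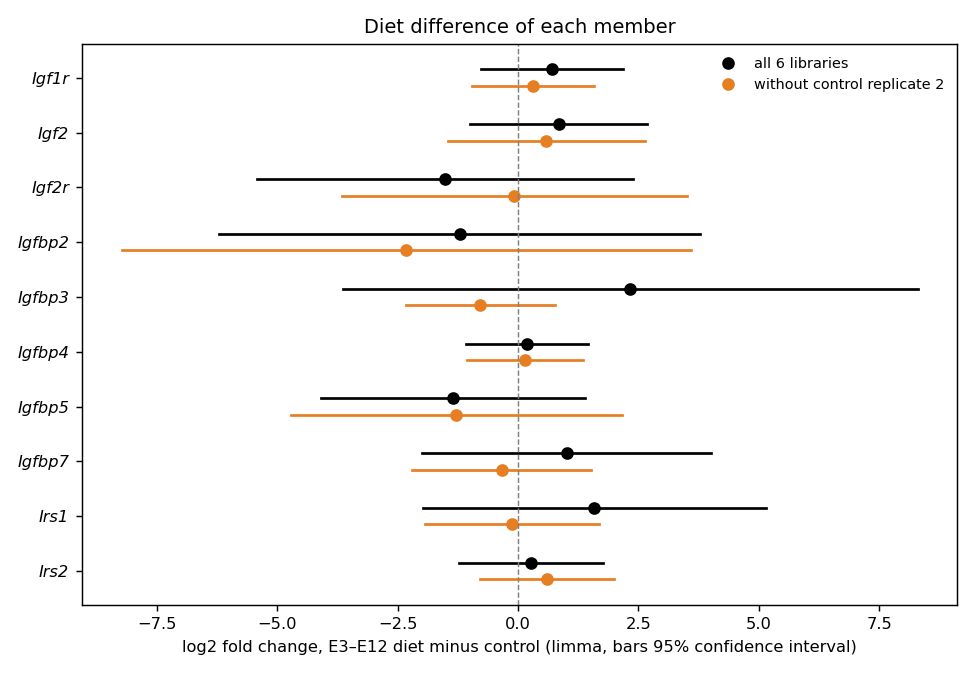
Log2 fold change of each gene between diets (E3–E12 diet minus control) with bars for the 95% confidence interval from limma, in black for all 6 libraries and in orange without control replicate 2. Every interval includes 0, and Igfbp3, Igfbp7 and Irs1 change sign once control replicate 2 is left out, from 2.34 to -0.78, from 1.01 to -0.34 and from 1.59 to -0.13.

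Levels were compared between genes as normalized counts per kilobase of annotated exon. By the median over 6 libraries, the order from the highest was Igfbp7 (2882), Igf2 (525), Irs2 (401), Igf1r (211), Igfbp4 (199), Igfbp3 (156), Igfbp5 (61.9), Igfbp2 (47.4), Irs1 (32.7) and Igf2r (31.9). Igfbp7 was above Igf2 in 5 of 6 libraries, by 1.56 ± 1.31 on the log2 scale (SD over libraries), and Irs2 was above Igf1r in 6 of 6, by 1.19 ± 0.84. The other 7 pairs of neighbours in this order differed by less than the SD of their difference.

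**Figure D3:**
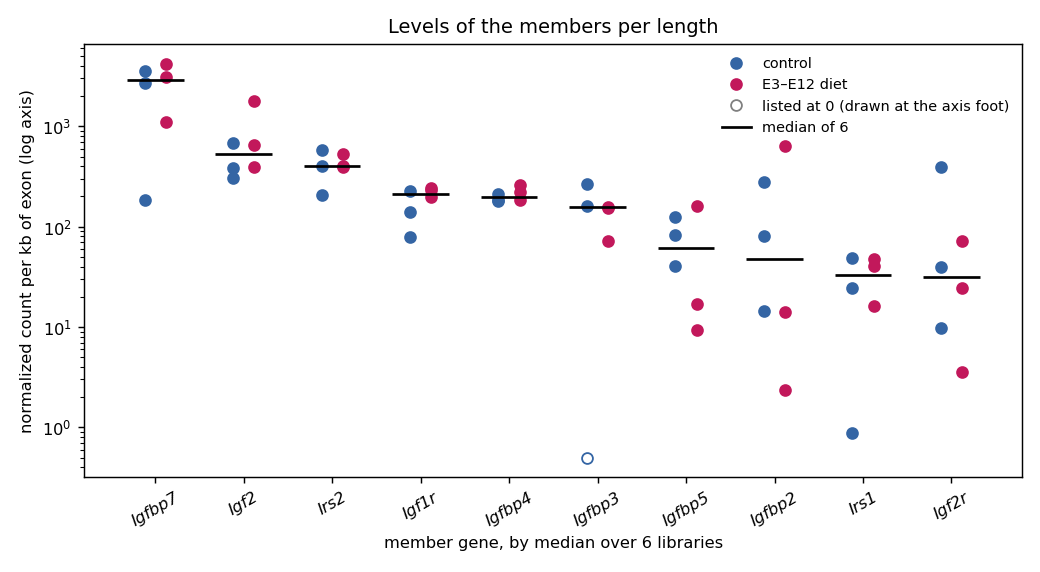
Normalized counts per kilobase of exon for each gene on a log axis, controls in blue and E3–E12 diet mice in red, with a line for the median of 6 libraries. Igfbp7 stands highest with a median of 2882, Igf1r and Igfbp4 have nearly the same median (211 and 199), and an open circle marks the library in which Igfbp3 is listed at 0.

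The highest and lowest values of the 10 genes often fell in the same libraries. E3–E12 diet replicate 1 was the highest library for 5 of the 10 (Igf2, Igfbp2, Igfbp4, Igfbp5 and Igfbp7). Control replicate 2 was the lowest for 6 (Igf1r, Igf2, Igfbp3, Igfbp4, Igfbp7 and Irs1) and the highest for Igf2r and Irs2. With both of these libraries left out, a choice made after the marker values were seen, 0 of the 10 passed the adjusted threshold and the smallest adjusted p was 0.893. In that fit, with 2 litters left in each group, the log2 fold change was -4.53 for Igfbp2 and -2.49 for Igfbp5. These were the 2 of the 10 genes with an unadjusted p under 0.05 in limma, where 964 of the 18007 genes had one. Of those 964, 735 were lower and 229 higher in E3–E12 diet mice. The fit leaves out E3–E12 diet replicate 1, the library in which both Igfbp2 and Igfbp5 were highest.

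**Figure D4:**
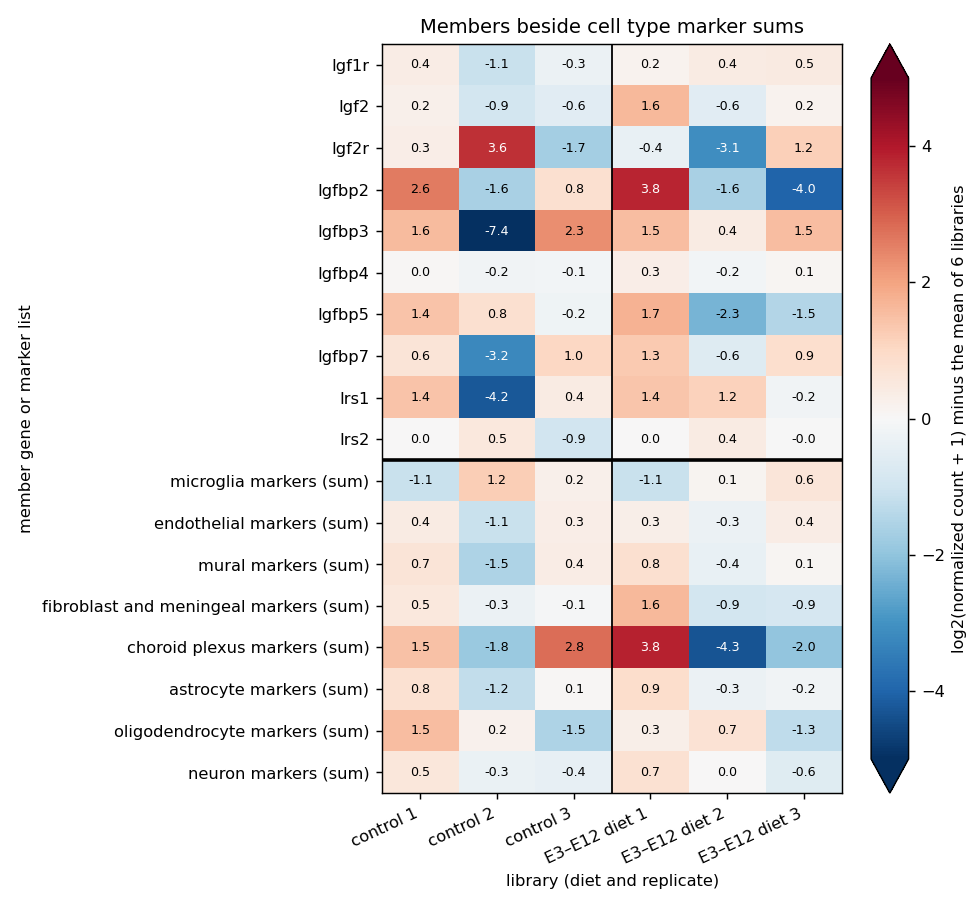
Level of each gene and of the sum of each cell type marker list in each library, as log2(normalized count + 1) minus the mean of the 6 libraries, in red where above and in blue where below it. Igfbp3 (-7.40), Irs1 (-4.22) and Igfbp7 (-3.21) are low in control replicate 2, where the mural, endothelial and astrocyte sums are lowest. Without Slc1a2, which is not drawn, the astrocyte sum is not lowest there. Irs1 is above its mean (1.17) in E3–E12 diet replicate 2, where these sums are next lowest. Igfbp2 is high (3.81) in E3–E12 diet replicate 1, where the choroid plexus, fibroblast and meningeal, mural, astrocyte and neuron sums are highest.

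Genes outside the set with the nearest pattern over the 6 libraries were found by the distance between log2 levels centred on their mean, among 10470 genes. The levels were not scaled, so a gene with little spread has small distances to begin with. The SD of log2 levels was 0.20 for Igfbp4 and 2.94 for Igfbp2. These distances therefore do not rank how closely each gene was followed. Igfbp3, listed at 0 in a library, was left out of this measure. Igf1r was nearest to Tctn1, a ciliary transition zone gene, at a distance of 0.20. The median distance over all candidates was 2.33, and a nearest gene lies below such a median by construction. Igf2 was nearest to Scd3, a fatty acid desaturase gene (0.26), and Igfbp4 to Tm9sf4 (0.23). Irs2 was nearest to Gm22406 (0.32) and Igfbp7 to Zic5, a zinc finger factor gene (0.59). The unscaled distances to the nearest gene were larger for Igfbp5 (Kif11, a mitotic kinesin gene, 0.91), Igf2r (Pgghg, 1.11) and Igfbp2 (Aff3, 1.78).

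Of 60 other genes of the pathway, 57 had a row and 52 were abundant enough to test, and limma placed 0 of these past the adjusted threshold (smallest adjusted p = 0.999). At the unadjusted level of 0.05 the count was also 0. 22 had a log2 fold change above 0 and 30 one below 0, with a median of -0.072 against 0.087 over all genes tested. Igf1, the other ligand gene, had 794, 1596 and 858 normalized counts among the controls, in replicate order, and 532, 835 and 1730.0 among the E3–E12 diet litters, with a fitted log2 difference of -0.17 (standard error 0.69). The insulin receptor gene Insr was at 1923, 3487 and 2292 normalized counts among the controls, in replicate order, and at 1778, 3140 and 2267 among the E3–E12 diet litters, with a fitted log2 difference of -0.093 (standard error 0.58). Both ranges overlapped between diets, and for Insr the highest library was 1.96 times the lowest.

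Grb10, an imprinted adaptor gene that restrains signalling from both receptors, had 620, 2.81 and 89.3 normalized counts among the controls, in replicate order, and 897, 98.4 and 139.9 among the E3–E12 diet litters, lowest and highest in the libraries that also marked Igf2, with a fitted log2 difference of 1.96 (standard error 1.90). Igf2bp2, which encodes a protein that binds IGF2 messenger RNA, was the only gene among these 52 whose groups did not overlap. It was at 235, 121 and 208 normalized counts among the controls, in replicate order, and at 277, 274 and 397 among the E3–E12 diet litters. Every E3–E12 diet library was above every control, with means of 188 ± 59.8 in controls and 316 ± 70.2 in E3–E12 diet mice (SD, n = 3 litters each). Among all genes tested, 2.99% were higher without overlap. For Igf2bp2 the exact permutation p was 0.1, the smallest that 3 against 3 allow. Any gene without overlap gets this value, so it adds nothing to the lack of overlap. The fitted log2 difference was 0.78, with a 95% confidence interval of -0.60 to 2.16 (limma adjusted p = 0.999).

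Of its relatives Igf2bp1 and Igf2bp3, neither passed the test, with log2 fold changes of -0.65 and -1.27 (standard errors 0.84 and 0.88). Among 23 downstream kinase and target genes 8 had a log2 fold change above 0 and 15 one below 0, and their range ran from -1.12 to 1.41. The 11 adaptors that passed the filter ran from -0.52 to 2.19, with 7 above 0. The 10 proteases and inhibitors of binding proteins, which include the PAPP-A gene Pappa and its inhibitor genes Stc1 and Stc2, were split 5 and 5.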

How the data were processed

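RNA was sequenced from microglial libraries of 3 control and 3 E3–E12 diet litters. The authors deposited normalized counts per gene, a scaled signal rather than raw counts. The authors' processing notes name FastQC, STAR, featureCounts and DESeq2 and the build GRCm38, with no versions. The table's name mentions surrogate variables, but no source used here describes that step. Values were not whole multiples of a common step (at most 2.17% of low values within 0.01), so reads were not recovered and no count model was run. Of 26789 Ensembl identifiers, 26507 were matched to symbols.

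The 18007 genes averaging 10 normalized counts or more were compared as log2(normalized count + 1) with limma 3.58.1 in R 4.3.3. The fit was without block or covariate, two-sided, Benjamini-Hochberg adjusted, threshold 0.1. The method was tested on simulated data with independent genes and no library-wide shifts, so that test does not cover the library differences seen here. Single genes were compared with exact permutation tests, whose smallest p is 0.1. Exon lengths came from GENCODE M21 (GRCm38) and start-site windows from RefSeq. All 10 genes, the pathway genes Igf1, Insr and Grb10, any pathway gene with an unadjusted p under 0.05 or no overlap, and the nearest gene in pattern (averaging 100 or more, not computed for Igfbp3 and not reported here for Irs1) are named, and Igf2bp1, Igf2bp3, Airn and the listed proteases were added after values were seen. Members and lists were chosen with earlier results of these data known.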

Additional observations from a re-analysis of the deposited data

How the results depend on the processing

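Under the alternatives (pseudocounts of 0.5 and 10, no filter or a mean of at least 100, quantile normalization, equal totals, a mean-variance trend, the replicate number as a block, a residual principal component, and libraries left out), 0 genes passed the adjusted threshold in every fit. Of 160 values of the 10 genes, 151 kept their sign and 9 changed it. The log2 fold changes that changed sign were those of Igfbp2 without E3–E12 diet replicate 3 (0.48), of Igfbp3, Igfbp7 and Irs1 without control replicate 2 (-0.78, -0.34 and -0.13), of Irs2 without control replicate 3 (-0.13), and of Igf2, Igfbp3, Igfbp7 and Irs1 without both control replicate 2 and E3–E12 diet replicate 1 (-0.021, -0.96, -0.73 and -0.42). In that last fit, chosen after seeing the data, Igfbp2 was at -4.53 and Irs2 at 0.67, and the count of the 10 genes above 0 was 3, against 7 with all libraries and 4 to 8 with single libraries left out. With single libraries left out, these genes ranged from -3.42 to 0.48 (Igfbp2), -0.78 to 4.07 (Igfbp3), -0.34 to 1.79 (Igfbp7), -0.13 to 2.70 (Irs1) and -0.13 to 0.61 (Irs2). Igf2 ranged from 0.23 to 1.33. The Igfbp3 value was 2.67 and 1.25 with pseudocounts of 0.5 and 10, and 1.53 after quantile normalization. The Igfbp2 value was -0.77 with a pseudocount of 10, and after quantile normalization the values were 1.04 for Irs1, 0.45 for Irs2 and 0.29 for Igfbp4. Igfbp4 was at 0.31 with equal totals.

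Genes at an unadjusted p under 0.05 numbered 327, and 156 when genes had to average 100 normalized counts or more, 491 after quantile normalization, 1423 with the principal component as covariate, 964 without the 2 libraries named above, and between 276 (without E3–E12 diet replicate 2) and 551 (without control replicate 1) with 1 library left out. Of the 10 genes, 1 had such a p with the covariate (Irs1, limma adjusted p = 0.582), 2 without both libraries, and between 0 and 1 with 1 library left out (Igfbp5, without E3–E12 diet replicate 1). The cause was not tested. After quantile normalization the split of such calls was 197 higher and 294 lower, against 171 and 156. Equal totals moved the median log2 fold change of all genes by 0.11, to 0.20, and relative to it 7 of the 10 genes still had a log2 fold change above 0.

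Replicate numbers run from 1 to 3 for both diets. Deviations of same-numbered libraries from their group means had correlations of 0.26, 0.035 and 0.14 across genes. Those of differently numbered libraries ran from -0.25 to 0.087. The main fit took no block, and whether equal numbers share a preparation is not known. With the replicate number as a block, 468 genes had an unadjusted p under 0.05, 0 of the 10 genes among them, and no call changed. Count-based alternatives were not run, since whole reads could not be recovered. With a median standard error of 0.85 on the log2 scale, a change of that size was not detectable in a single gene. For the 10 genes the median standard error was 1.20, and single values ran from 0.53 (Igfbp4) to 2.49 (Igfbp3). A change as large as its standard error passes neither threshold, so larger changes could also have been missed.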
